A study of Homo sapiens with 12 samples.

Results

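The MYC network comprised 8 genes, MYC, MAX, MXD1, MXD3, MXD4, MXI1, MNT and MGA, taken by symbol from 60671 genes in one expression table and 60666 in the other, with 60630 identifiers in both. The genes were chosen by their measured values: the difference of MYC between cells with and without RVT in these libraries was known when the network was drawn up, so the levels and differences of the 8 genes are given as a description, with no test. RNA was sequenced from SZ95 sebocytes, a single established line of human sebaceous gland cells immortalised with SV40 large T antigen. The 12 libraries fell into 4 groups of 3 that are described as biological replicates: LA, LA+RVT, PGN and PGN+RVT. Nothing says that the replicates of a group came from separate cultures, so the spread within a group may be technical. RVT is resveratrol, a polyphenol made by plants, as the title of the series shows, and its effects on lipid accumulation and on inflammation were under study. The labels leave LA and PGN as abbreviations, taken in this text to mean linoleic acid, which makes sebocytes store lipid, and peptidoglycan, a component of bacterial cell walls that provokes inflammation. The labels give no doses or times and no untreated group, so every group carries a stimulus and each RVT comparison is within a stimulus (an arm). Expression was deposited as TPM, a transcript abundance corrected for transcript length and expressed relative to the whole library, which keeps no record of depth.

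MYC is a basic helix-loop-helix leucine zipper transcription factor that binds DNA as a heterodimer with MAX, and its targets include genes of ribosome assembly, nucleotide and polyamine synthesis, amino acid uptake and cell cycle entry. MAX is shared with a set of antagonists, the MXD proteins, MXI1, MNT and MGA, which bind the same E-box sequences, and of these the MXD proteins, MXI1 and MNT recruit the SIN3 histone deacetylase corepressor while MGA belongs to the Polycomb complex PRC1.6. In epidermal and sebaceous epithelium MYC is known for driving progenitors towards proliferation and sebaceous differentiation, and MXD1 is typically expressed in cells leaving the cell cycle.

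All network dimers recognise the canonical E-box, CACGTG, which reads the same on both strands, so its occurrence near transcription starts was counted for the network and for the target lists used further on. RefSeq windows of 300 bases (250 before to 50 after a start, GRCh38.p14) held CACGTG in 2548 of 35116 cases (7.26%), or in at least 1 window of 2396 of 27305 genes (8.78%). MYC had no entry in this table. Of the 7 other members, which had 12 windows, MNT and MXD4 held CACGTG, and the related letters CACGCG (read on either strand, so CGCGTG also counts) lay in windows of MXD3, MXI1 and MGA, against 3687 genes (13.5%) of all. CACGTG lay in windows of 11 of 27 MYC-induced ribosome biogenesis genes with an entry and of 17 of 29 MYC-induced metabolic genes. A match is a description of the letters and not a bound site. The stretches shown are those of the network members with the canonical motif, of MLX (the MAX-like factor of the parallel network) and of the MYC targets ODC1 and SLC7A5, whose values are described below. Capitals mark the E-box, and no stretch overlaps an exon.
MNT, minus strand, chr17:2401236-2401265, motif 188 bases before the start: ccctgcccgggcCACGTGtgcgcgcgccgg
MXD4, minus strand, chr4:2262330-2262359, motif 233 bases before the start: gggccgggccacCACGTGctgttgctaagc
MLX, plus strand, chr17:42567038-42567067, motif 45 bases before the start: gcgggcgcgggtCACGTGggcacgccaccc
ODC1, minus strand, chr2:10448024-10448053, motif 24 bases before the start: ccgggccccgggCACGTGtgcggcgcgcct
SLC7A5, minus strand, chr16:87869620-87869649, motif 125 bases before the start: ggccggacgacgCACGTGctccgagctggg

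Library sums lay between 994373 and 997060 TPM, and a level of 1 TPM was reached by 14489 to 15452 genes per library. Of 13 sebocyte and epithelial markers, 12 reached a mean of 1 TPM in every group, among them KRT7, KRT8 and KRT18, the keratins of simple epithelium. The summed level of the 13 ran from 5329 to 5439 TPM with LA, 6347 to 6425 with LA+RVT, 8010 to 8166 with PGN and 8177 to 8292 with PGN+RVT. The sum hides opposite changes. At an adjusted p under 0.05 in limma, 5 of 12 were higher with RVT in the LA arm (KRT7, KRT8, KRT18, EPCAM and SOX9) and 2 lower (KRT5 and MUC1). In the PGN arm 3 were higher (FASN, SCD and SOX9) and 2 lower (KRT5 and PPARG). Of all tested genes, 15.7% and 15.6% were called in these arms. In each of the lists for fibroblasts and immune cells 1 of 6 markers reached 1 TPM, with sums of at most 11.64 and 6.38 TPM, and DCN of the fibroblast list was listed at 0 in all groups. The endothelial list was carried by CDH5, which went from 16.9 to 6.69 TPM in the LA arm and from 24.8 to 22.9 TPM in the PGN arm, while the group means of its 5 other markers stayed under 1 TPM. The melanocyte list had 1 or 2 of 6 markers at 1 TPM, with TYR listed at 0 in all groups, and PMEL rose from 5.85 to 9.51 TPM with RVT in the PGN arm (adjusted p = 0.00799). The part of the moving epithelial, endothelial and melanocyte markers in the results that follow was not tested. The LA and the PGN libraries are listed in separate tables, in which 1432 shared identifiers carry different names. LA and PGN levels are therefore only placed next to each other, with no test between them. In these bulk samples, fewer cells that express a gene and less RNA per cell cannot be told apart.

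MYC (ENSG00000136997, 8:127735434-127741434 on GRCh38, plus strand, protein coding) was the most abundant member in all 4 groups on the TPM scale. The 3 LA libraries held 46.15, 44.10 and 44.73 TPM and the 3 LA+RVT libraries 73.06, 72.61 and 77.42 TPM. The mean was 45.0 ± 1.05 TPM (SD, n = 3) with LA and 74.4 ± 2.66 TPM (SD, n = 3) with LA+RVT, a ratio of 1.65. Every LA+RVT library lay above every LA library. The 3 PGN libraries held 140.68, 136.44 and 134.10 TPM and the 3 PGN+RVT libraries 124.62, 129.09 and 133.40 TPM, with means of 137 ± 3.34 and 129 ± 4.39 TPM (SD, n = 3 each) and a ratio of 0.941. Here every PGN+RVT library lay below every PGN library, by a margin of under 1 TPM between the nearest pair, 133.40 and 134.10 TPM. On the log2(TPM + 1) scale, used for all differences and understating the change of low genes, the RVT difference was 0.71 ± 0.041 (SE) in the LA arm and -0.087 ± 0.044 (SE) in the PGN arm. The PGN difference minus the LA difference was -0.80 ± 0.057 (SE).

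The 4 groups of MYC values did not overlap and ran, from low to high, LA, LA+RVT, PGN+RVT and PGN, with a ratio of 3.05 between the highest and the lowest group mean. Among genes whose group mean reached 1 TPM, MYC stood above 76.8% in LA, 85.1% in LA+RVT, 92.5% in PGN and 91.8% in PGN+RVT. The LA+RVT libraries were thus listed between the LA and the PGN libraries, a side by side reading with no test between the arms. No annotated gene of GENCODE 29 overlapped an exon of MYC, whereas each other member shared exonic bases with at least 1 other gene on one or the other strand, and it is not given here whether the counting used strand.

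**Figure D1:**
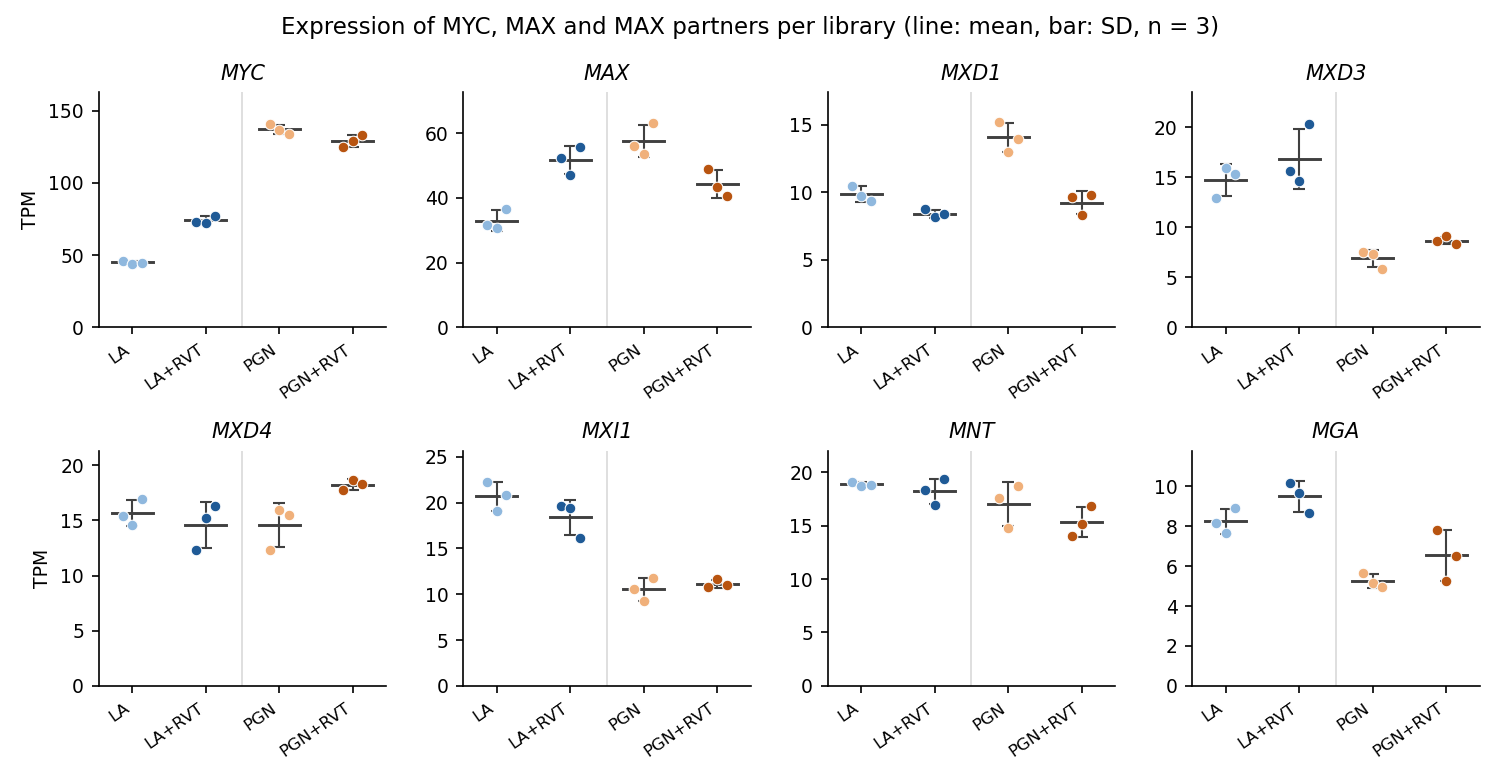
Expression of the 8 network genes in TPM (vertical axis, from 0) in the 4 groups (horizontal axis). Each point is 1 library, lines are means and bars are SD (n = 3); MYC libraries of LA lie between 44.10 and 46.15 TPM and those of PGN between 134.10 and 140.68 TPM, and the 4 groups do not overlap.

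MAX (ENSG00000125952, 14:65006174-65102695, minus strand), the partner that MYC shares with the antagonists, was second in level in every group. It measured 31.56, 30.77 and 36.63 TPM with LA and 52.31, 47.17 and 55.57 TPM with LA+RVT. The means of 33.0 ± 3.18 and 51.7 ± 4.24 TPM (SD, n = 3 each) gave a ratio of 1.57, and the groups did not overlap. The order was the opposite in the PGN arm, where MAX measured 56.05, 53.55 and 63.23 TPM with PGN and 49.02, 43.26 and 40.61 TPM with PGN+RVT. The means were 57.6 ± 5.03 and 44.3 ± 4.30 TPM (SD, n = 3 each), a ratio of 0.769, again with no overlap. The log2 difference was 0.63 ± 0.086 (SE) in the LA arm and -0.37 ± 0.089 (SE) in the PGN arm, and the second minus the first was -1.01 ± 0.13 (SE). Over the 4 groups MAX ran from LA to PGN+RVT, LA+RVT and PGN, a range of 1.75 times, in which neighbours overlapped at both upper steps. AL139022.1, an antisense neighbour, shares exonic bases with MAX.

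MXD1 (ENSG00000059728, 2:69897688-69942945, plus strand) encodes a SIN3-recruiting antagonist associated with differentiation, and it was lower with RVT in both arms. It measured 10.49, 9.72 and 9.38 TPM with LA and 8.73, 8.13 and 8.35 TPM with LA+RVT. The means of 9.86 ± 0.569 and 8.40 ± 0.304 TPM (SD, n = 3 each) had a ratio of 0.852. Without RVT it measured 15.19, 12.99 and 13.97 TPM in the PGN arm, and with RVT 9.63, 8.30 and 9.78 TPM. The groups did not overlap in either arm. The PGN means of 14.1 ± 1.10 and 9.24 ± 0.815 TPM (SD, n = 3 each) had a ratio of 0.657. The log2 difference was -0.21 ± 0.074 (SE) in the LA arm and -0.56 ± 0.093 (SE) in the PGN arm, and the second minus the first was -0.35 ± 0.11 (SE). PGN was the one group that stood apart in MXD1: from low to high the groups ran LA+RVT, PGN+RVT, LA and PGN, and only the last step was free of overlap. SNRNP27 shares exonic bases with MXD1 on the same strand.

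MXD3 (ENSG00000213347, 5:177301461-177312757, minus strand) is the family member linked to S phase and proliferating cells. It measured 12.90, 15.90 and 15.33 TPM with LA and 15.61, 14.60 and 20.26 TPM with LA+RVT, which overlapped. With PGN it measured 7.48, 7.31 and 5.87 TPM and with PGN+RVT 8.59, 9.08 and 8.32 TPM, which did not. The means were 14.7 ± 1.59, 16.8 ± 3.02, 6.89 ± 0.885 and 8.66 ± 0.385 TPM in the same order (SD, n = 3 each), and the log2 difference was 0.17 ± 0.13 (SE) in the LA arm and 0.30 ± 0.10 (SE) in the PGN arm. Placed side by side with no test, both PGN groups of MXD3 lay below both LA groups, the opposite of the order for MYC. PRELID1 and RAB24 share exonic bases with MXD3.

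MXD4 (ENSG00000123933, 4:2247432-2262294, minus strand), a further antagonist of the family, held similar levels in 3 of the groups and stood higher in PGN+RVT. It measured 15.42, 14.63 and 16.93 TPM with LA and 12.31, 15.19 and 16.27 TPM with LA+RVT. With PGN it measured 12.35, 15.98 and 15.48 TPM and with PGN+RVT 17.72, 18.69 and 18.32 TPM. The LA groups overlapped and the PGN groups did not. The log2 difference was -0.10 ± 0.11 (SE) in the LA arm and 0.31 ± 0.10 (SE) in the PGN arm. MIR4800 shares exonic bases with MXD4.

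MXI1 (ENSG00000119950, 10:110207605-110287365, plus strand), also known as MXD2, was listed lower in the PGN arm than in the LA arm, which was not tested. It measured 22.24, 19.05 and 20.78 TPM with LA and 19.63, 19.39 and 16.18 TPM with LA+RVT. With PGN it measured 10.62, 9.28 and 11.78 TPM and with PGN+RVT 10.80, 11.66 and 10.97 TPM. The groups overlapped within each arm, and the log2 difference was -0.16 ± 0.093 (SE) with LA and 0.076 ± 0.096 (SE) with PGN. Every LA or LA+RVT library lay above every PGN or PGN+RVT library, as was the case for MXD3. AL360182.2 shares exonic bases with MXI1.

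MNT (ENSG00000070444, 17:2384060-2401118, minus strand), the broadly expressed antagonist found in resting and cycling cells alike, varied least of the 8 genes over the groups, by 1.23 times. It measured 19.09, 18.70 and 18.85 TPM with LA, 18.31, 16.95 and 19.35 with LA+RVT, 17.61, 14.79 and 18.73 with PGN and 14.04, 15.15 and 16.84 with PGN+RVT. Each neighbouring pair of groups overlapped, and the log2 difference was -0.052 ± 0.062 (SE) in the LA arm and -0.14 ± 0.11 (SE) in the PGN arm. MGA (ENSG00000174197, 15:41621224-41773081, plus strand), the large dual-specificity protein that carries a T-box domain besides its helix-loop-helix region, was the lowest member in 3 of the groups. It measured 8.17, 7.68 and 8.93 TPM with LA, 10.16, 9.68 and 8.65 with LA+RVT, 5.64, 5.18 and 4.95 with PGN and 7.81, 5.28 and 6.53 with PGN+RVT. MGA groups overlapped in both arms, with log2 differences of 0.18 ± 0.091 (SE) and 0.26 ± 0.14 (SE). The antisense neighbours AC006435.1 and AC073657.1 share exonic bases with MNT and MGA.

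**Figure D2:**
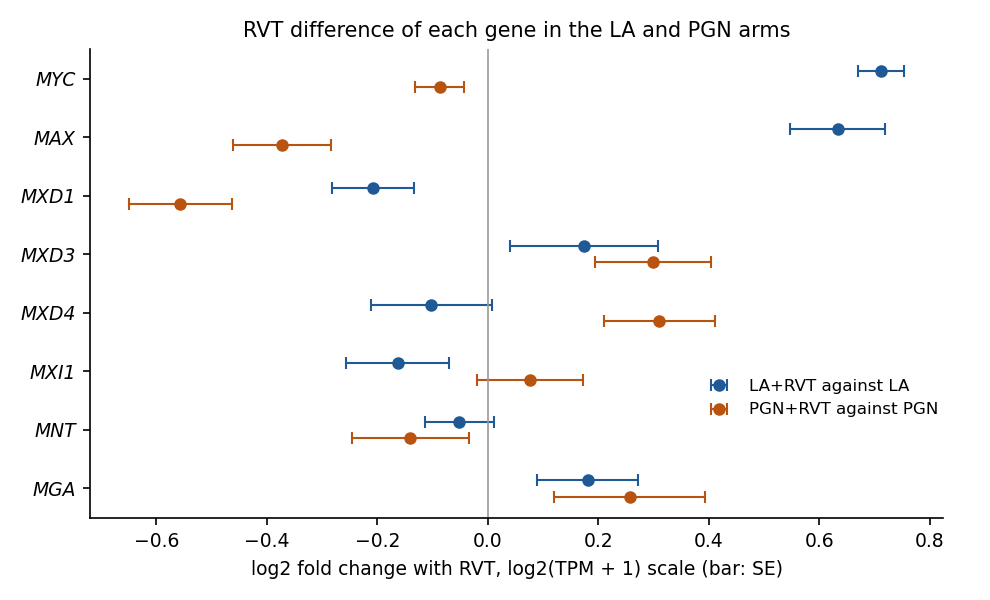
RVT difference of each network gene on the log2(TPM + 1) scale (horizontal axis) in the LA arm (blue) and the PGN arm (orange), with SE as bars. MYC and MAX stand at 0.71 and 0.63 in the LA arm and at -0.087 and -0.37 in the PGN arm, while MXD1 lies below 0 in both.

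All 8 genes passed the filter of a mean of 1 TPM in both arms. At an adjusted p under 0.05 (limma, Benjamini-Hochberg over all genes), 2 of 8 were past the threshold in the LA arm, MYC and MAX, both higher with RVT, where 15.7% of all 15409 tested genes were past it, 10.7% higher and 5.07% lower. In the PGN arm 2 of 8 were past it, MAX and MXD1, both lower with RVT, where 15.6% of all 14622 tested genes were past it, 10.6% higher and 4.92% lower. The 2 groups did not overlap for 3 of 8 genes in the LA arm, against 36.2% of all genes, and for 5 of 8 in the PGN arm, against 36.1%. These counts follow from the choice of the genes, so they are no test of the members and nothing is read from them. The place of MAX in the PGN count also depended on the fit. It was past the threshold under 6 of 13 alternative fits, and with 1 library left out only without PGN+RVT replicate 1. The log2 difference of MAX in the PGN arm lay between -0.45 and -0.30 over the alternatives.

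The balance of the network was summed from the same values as the share of MYC in the TPM of all MAX partners, that is MYC and the 6 antagonists. MYC made up 34.32%, 33.98% and 33.15% of this sum in the LA libraries and 46.30%, 46.38% and 46.50% in the LA+RVT libraries. The means were 33.8 ± 0.603% and 46.4 ± 0.105% (SD, n = 3 each). In the PGN arm the share was 67.13%, 67.55% and 65.45% without RVT and 64.50%, 65.44% and 65.34% with it. Those means were 66.7 ± 1.11% and 65.1 ± 0.518% (SD, n = 3 each), and the nearest libraries of these groups differed by under 0.1 percentage points. The antagonist sum differed with RVT by less than the SD of each group, at 88.1 ± 2.27 and 85.9 ± 2.75 TPM in the LA arm and 68.4 ± 2.66 and 69.2 ± 1.39 TPM in the PGN arm (SD, n = 3 each), so the higher share in LA+RVT came from the MYC term. A lower MXD1 stood against higher MXD3 and MXD4 in the PGN arm. MYC exceeded MAX in every group, with a ratio of 1.37 ± 0.132 in LA, 1.44 ± 0.0834 in LA+RVT, 2.39 ± 0.236 in PGN and 2.94 ± 0.374 in PGN+RVT (SD, n = 3 each). In the LA arm both genes were higher with RVT and their ratio moved little, whereas in the PGN arm MAX was lower by more than MYC. These are sums of transcript levels and say nothing of protein.

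**Figure D3:**
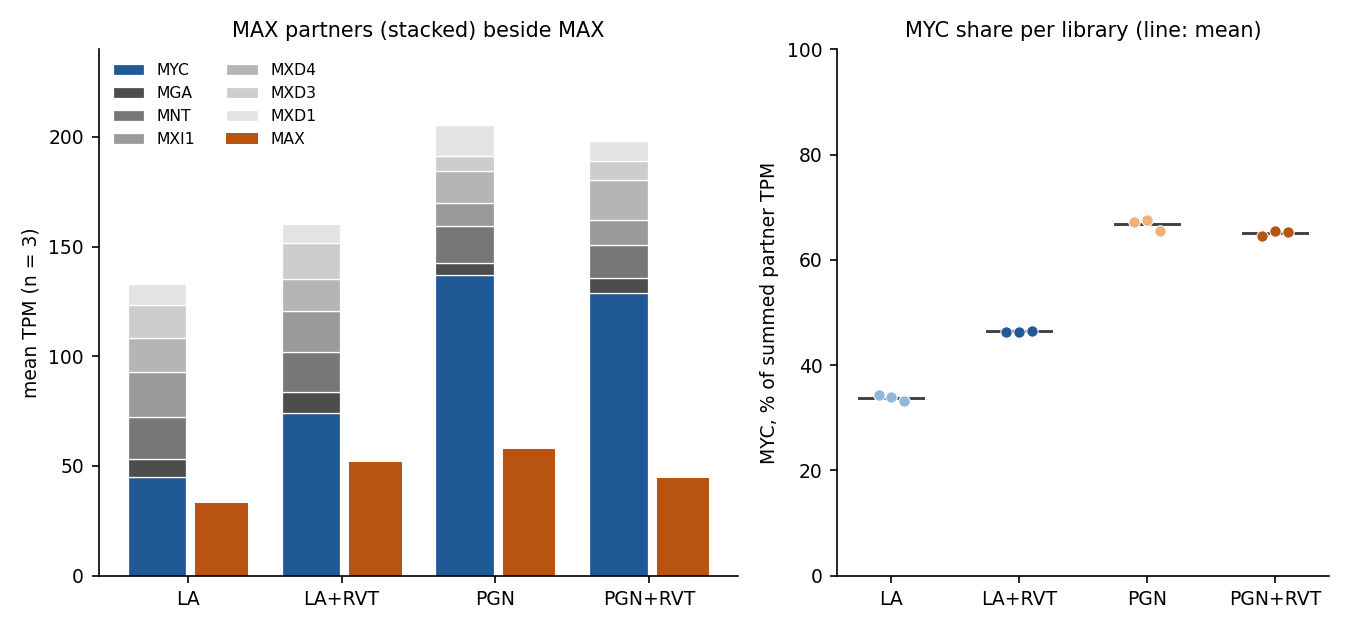
Left, mean TPM (n = 3) of MYC and the 6 antagonists stacked, beside MAX, in the 4 groups. Right, MYC as a percentage of the summed MAX partners per library (points) with the group mean (line); the LA and LA+RVT means are 33.8% and 46.4%, and the PGN and PGN+RVT means are 66.7% and 65.1%.

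Genes were ranked by how closely they followed MYC over the 12 libraries, by Pearson's r of log2(TPM + 1) after the mean of each table was removed, among 10530 genes. Libraries of a group share their treatment, so r here mostly reflects the group differences, and the LA arm, in which MYC differed most, dominates it. The 6 most alike were DCBLD2 (r = 0.986), PVR (0.984), HSPA8 (0.983), ELK3 (0.980), STIP1 (0.980) and TPM3 (0.978). They encode a neuropilin-like membrane protein, the poliovirus receptor and nectin-like adhesion molecule, the constitutive cytosolic HSP70 chaperone, an ETS transcription factor, the HSP70-HSP90 co-chaperone and a tropomyosin. HSPA8 stood at 439 ± 6.35 TPM with LA, 779 ± 29.2 with LA+RVT, 829.8 ± 18.0 with PGN and 805 ± 24.1 with PGN+RVT (SD, n = 3 each). Over the 6 libraries of the LA arm these genes had r between 0.983 and 0.997, and over those of the PGN arm between 0.573 and 0.740. The 3 most opposite were ALDH3B1, an aldehyde dehydrogenase (r = -0.973), AQP3, the aquaglyceroporin of epidermis and sebocytes (-0.972), and PTGES, the microsomal prostaglandin E synthase (-0.971). The r of these 3 was -0.997, -0.992 and -0.983 over the LA libraries and 0.0185, -0.191 and -0.764 over the PGN libraries. AQP3 stood at 60.7 ± 1.35 TPM with LA, 23.0 ± 0.703 with LA+RVT, 95.69 ± 11.04 with PGN and 99.1 ± 7.85 with PGN+RVT (SD, n = 3 each). Within the network, r with MYC was 0.834 for MAX, 0.301 for MXD3, 0.287 for MGA, -0.0532 for MNT, -0.204 for MXD1, -0.285 for MXD4 and -0.531 for MXI1. For MXD1 the r had opposite signs in the arms, -0.879 over the LA libraries and 0.801 over the PGN libraries. All of these were picked or described on the same 12 libraries and carry no test.

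Of the 7 other genes of the extended network, the MYC paralogs MYCN and MYCL, the MLX branch and its target TXNIP among them, 6 were tested. MYCN stayed at 0.323, 0.643, 0.217 and 0.443 TPM in LA, LA+RVT, PGN and PGN+RVT, under the filter. MYCL stood at 1.51, 1.91, 1.16 and 1.89 TPM in the same order and passed the threshold in neither arm (adjusted p = 0.462 and 0.14), so MYC was by far the most abundant of the 3 paralogs per length. MLX, the MAX-like partner of the glucose-sensing Mondo factors, rose from 38.7 ± 2.06 to 46.12 ± 1.236 TPM (SD, n = 3 each) in the LA arm (log2 fold change 0.25 ± 0.051 SE, adjusted p = 0.0207). That call was lost in 5 of 13 alternatives, among them the fits without LA replicate 1 or 2 or LA+RVT replicate 2 or 3 (0.21 to 0.26). MLX measured 38.1 and 39.8 TPM in the PGN arm (adjusted p = 0.51). TXNIP, a Mondo target that restrains glucose uptake, fell from 219 ± 5.78 to 187 ± 2.996 TPM in the LA arm (log2 -0.22 ± 0.030 SE, adjusted p = 0.00435). It rose from 68.7 ± 6.29 to 84.0 ± 1.10 TPM in the PGN arm (0.29 ± 0.070 SE, adjusted p = 0.0333), a call lost in 6 of 13 alternatives, among them the fits without PGN replicate 2 or any 1 PGN+RVT library (0.28 to 0.31). Over all 15177 genes tested for it, 14.8% had a difference between the arms past the threshold. That of TXNIP was 0.51 ± 0.078 (SE, adjusted p = 0.00142).

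Among 15 MYC cofactors (histone acetyltransferase, chromatin remodelling and elongation subunits and the partner ZBTB17), 4 rose and 0 fell in the LA arm, with a median log2 difference of 0.066 against 0.036 over all tested genes. At an unadjusted p under 0.05 in limma, 1 was lower. Over all tested genes 10.7% rose and 5.07% fell in the LA arm. KAT2A, the GCN5 acetyltransferase, rose from 34.96 ± 1.389 to 43.1 ± 2.34 TPM (adjusted p = 0.0156) and RUVBL1, a helicase of the TIP60 and INO80 complexes, from 93.0 ± 4.04 to 111 ± 6.12 TPM (adjusted p = 0.0212), with SD and n = 3 each. WDR5, which docks MYC on chromatin, measured 42.02, 42.01 and 42.36 TPM with LA and 52.51, 48.94 and 48.81 TPM with LA+RVT (adjusted p = 0.0123). The KAT2A call was lost in 4 of 13 alternatives, among them the fits without LA replicate 2 or 3 or LA+RVT replicate 2 (0.26 to 0.30). The RUVBL1 call was lost in 6 of 13, among them the fits without LA replicate 1 or 3 or LA+RVT replicate 1 or 2 (0.22 to 0.26). The count of 4 was 1 under the replicate block and without LA replicate 3 or LA+RVT replicate 2, and 2 with no filter and without LA replicate 1 or 2. In the PGN arm ZBTB17, the MIZ1 factor through which MYC represses genes, was the only one past the threshold, from 17.9 ± 2.26 to 23.6 ± 0.802 TPM (SD, n = 3 each; adjusted p = 0.0361). It was lost in 8 of 13 alternatives, among them the fits without any 1 library other than PGN replicate 3 (0.28 to 0.41). The median there was 0.040 against 0.064 over all genes, of which 10.6% rose and 4.92% fell.

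The SIN3 corepressor recruited by the MXD proteins was represented by 13 genes. Over all tested genes, 15.7% were called in either direction in the LA arm and 15.6% in the PGN arm. In the LA arm 4 rose (SIN3B, HDAC2, SAP30 and BRMS1) and 1 fell (SUDS3), with a median of -0.029. The count of 1 that fell was 0 without any 1 of the 6 libraries, under the replicate block and in the fit of all 12 libraries, and 2 with library medians equalised. SAP30, a SIN3-associated subunit, rose from 4.70 ± 0.970 to 8.43 ± 0.274 TPM (SD, n = 3 each; log2 0.74 ± 0.13 SE, adjusted p = 0.0132), and HDAC2, a catalytic deacetylase, from 99.71, 102.01 and 98.31 to 127.37, 126.3 and 120.02 TPM (0.31 ± 0.035 SE, adjusted p = 0.00234). SIN3B, one of the scaffold proteins, rose by 0.30 ± 0.048 (SE, adjusted p = 0.00904). In the PGN arm 2 rose and 1 fell. HDAC1 rose from 160.5 ± 3.23 to 195.5 ± 2.18 TPM (0.28 ± 0.037 SE, adjusted p = 0.00373) and SAP18 from 52.2 ± 1.90 to 63.8 ± 1.27 TPM (0.29 ± 0.049 SE, adjusted p = 0.0108). RBBP4, a histone-binding subunit, fell by 0.17 on the log2 scale (adjusted p = 0.0349), lost in 6 of 13 alternatives, among them the fits without any 1 library other than PGN replicate 1 (-0.18 to -0.14). The difference between the arms passed the threshold for HDAC1, SAP18, HDAC2 and SAP30, against 14.8% of all genes in either direction. It did not pass in limma for the 9 other genes, SIN3B (adjusted p = 0.505), BRMS1 (0.924) and RBBP4 (0.312) among them. Of 9 PRC1.6 genes, the complex in which MGA acts, 0 passed the threshold in limma in either arm, with 4 at an unadjusted p under 0.05 in the LA arm and 1 in the PGN arm. The difference between the arms passed it for 1 of the 9, CBX3, a heterochromatin protein (-0.27 ± 0.078 SE, adjusted p = 0.037).

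Genes that set the life span of MYC protein and the level of its transcript were followed in 2 further lists. Over all tested genes, calls in either direction were made for 15.7% in the LA arm and 15.6% in the PGN arm. Of 15 turnover genes, 2 rose in the LA arm and 2 rose and 1 fell in the PGN arm. AURKA, a mitotic kinase that also shields MYC proteins from degradation, rose in both arms, from 179 ± 0.701 to 197.5 ± 6.73 TPM with LA (adjusted p = 0.0246) and from 159.8 ± 12.8 to 232 ± 8.71 TPM with PGN (log2 0.54 ± 0.063 SE, adjusted p = 0.00248; SD, n = 3 each). The LA call of AURKA was lost in 8 of 13 alternatives, among them the fits without any 1 library other than LA+RVT replicate 3 (0.12 to 0.15). PPP2R5A, a subunit of the phosphatase that acts on MYC, rose by 0.24 in the LA arm (adjusted p = 0.0398), lost in 8 of 13 alternatives, among them the fits without any 1 library other than LA replicate 1 (0.21 to 0.25). PPP2CA, the catalytic subunit, fell by 0.23 on the log2 scale in the PGN arm (adjusted p = 0.0217). Its call was lost in 5 of 13 alternatives, among them the fits without PGN replicate 3 or PGN+RVT replicate 1 or 3 (-0.23 to -0.22). Of 13 genes of MYC transcription and mRNA control, 3 rose in the LA arm and 1 in the PGN arm. PVT1, the long non-coding RNA gene next to MYC, measured 26.54, 23.76 and 25.49 TPM with LA and 31.59, 33.48 and 31.79 TPM with LA+RVT, a rise of 0.34 ± 0.057 (SE, adjusted p = 0.00962). With PGN it measured 34.11, 33.66 and 31.06 TPM and with PGN+RVT 30.49, 28.06 and 28.99 TPM, which did not overlap but missed the threshold (-0.17 ± 0.063 SE, adjusted p = 0.117). The PVT1 difference between the arms was -0.51 ± 0.082 (SE, adjusted p = 0.00185). HNRNPK, a nucleic acid binding protein that acts at the MYC promoter, rose by 0.16 in the LA arm (adjusted p = 0.00355). CTNNB1, the beta-catenin that drives MYC through TCF factors, rose by 0.19 in the LA arm (adjusted p = 0.0326) and by 0.22 in the PGN arm (adjusted p = 0.0109). Its LA call was lost in 8 of 13 alternatives, among them the fits without any 1 library other than LA replicate 3 (0.14 to 0.20).

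MYC-induced ribosome biogenesis genes, which build the nucleolus and assemble ribosomal subunits, rose in large number in the LA arm: 24 of 34 rose, 1 fell (FBL, the box C/D methyltransferase) and 33 of 34 had a positive difference, with a median of 0.25 against 0.036 over all tested genes. Over all genes 10.7% rose and 5.07% fell. The gene lists were chosen with earlier results of these data known, so setting a list against all genes is a description. The count of 24 that rose was 17 to 21 with 1 library left out, and 18 with no filter and under the replicate block. The FBL call was lost without any 1 of the 6 libraries, with no filter and in the fit of all 12 libraries. NOP16, a nucleolar assembly factor, measured 36.03, 35.93 and 37.16 TPM with LA and 51.73, 53.03 and 55.65 TPM with LA+RVT, a rise of 0.54 ± 0.043 (SE, adjusted p = 0.000739). NOLC1, a nucleolar phosphoprotein, rose from 69.96 ± 1.08 to 90.9 ± 1.395 TPM (0.37 ± 0.032 SE, adjusted p = 0.000861), and TCOF1, the treacle protein of rRNA transcription, from 59.9 ± 1.25 to 78.8 ± 1.61 TPM (0.39 ± 0.035 SE, adjusted p = 0.00106; SD, n = 3 each). No LA+RVT library of these genes lay as low as an LA library.

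Of the 34, 0 rose in the PGN arm in limma (1 at an unadjusted p under 0.05) and 5 fell, NOP56, NPM1, NCL, DKC1 and PA2G4, with a median of -0.063 against 0.064 over all genes. In this arm 10.6% of all genes rose and 4.92% fell. NOP56, a core protein of methylation guide particles, fell from 286 ± 4.63 to 223 ± 5.46 TPM (log2 -0.36 ± 0.037 SE, adjusted p = 0.00142). NPM1, the nucleophosmin chaperone, fell from 1987 ± 121 to 1619 ± 47.9 TPM (-0.29 ± 0.048 SE, adjusted p = 0.00846), and NCL, nucleolin, from 899.6 ± 23.3 to 770.2 ± 20.01 TPM (-0.22 ± 0.035 SE, adjusted p = 0.00721; SD, n = 3 each). The same 3 genes rose in the LA arm, by 0.18, 0.14 and 0.26 (adjusted p = 0.0242, 0.008 and 0.00136), the first of which was lost in 7 of 13 alternatives, among them the fits without any 1 library other than LA replicate 3 (0.14 to 0.19). The count of 5 that fell was 3 without PGN replicate 2 or PGN+RVT replicate 1 or 2. NOP16 stood at 90.4 ± 5.50 TPM with PGN and 93.9 ± 0.947 TPM with PGN+RVT (adjusted p = 0.539), above both LA groups. The PGN difference minus the LA difference was past the threshold for 23 of 34 genes, all negative, with a median of -0.39 against 0.026 over all genes. Among all 15177 genes tested for this difference, 2240 (14.8%) were past the threshold, 1173 positive and 1067 negative. With library medians equalised, the counts were 18 higher in the LA arm and 6 lower in the PGN arm. In the LA arm 8 of the 11 genes with CACGTG in a window rose and 1 fell (median 0.24), as did 11 and 0 of the 16 without it (median 0.24). In the PGN arm 0 of the 11 with it fell in limma (median -0.092) and 5 of the 16 without it (median -0.027).

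MYC-induced metabolic genes, of polyamine, nucleotide and folate synthesis, glycolysis, amino acid and iron uptake and protein folding, split more widely. In the LA arm 17 of 33 rose and 2 fell, with a median of 0.16, and in the PGN arm 2 rose and 9 fell, with a median of -0.085. Over all tested genes 10.7% rose and 5.07% fell in the LA arm and 10.6% rose and 4.92% fell in the PGN arm. The PGN count of 2 that rose was 0 with no filter, with library medians equalised and without any 1 library other than PGN replicate 1, and 1 under the replicate block. The LA count of 17 was 10 without LA replicate 2, 11 without LA replicate 1 or LA+RVT replicate 2 or 3, and 11 with no filter. The PGN count of 9 was 4 without PGN+RVT replicate 1, 5 without PGN+RVT replicate 2 or 3 or with no filter, and 6 without PGN replicate 2 or 3. ODC1, the rate-limiting enzyme of polyamine synthesis and a classic MYC target, measured 43.73, 45.25 and 43.51 TPM with LA and 56.99, 60.40 and 57.02 TPM with LA+RVT, a rise of 0.39 ± 0.041 (SE, adjusted p = 0.00194). It measured 144.52, 140.28 and 122.14 TPM with PGN and 92.95, 92.99 and 89.19 TPM with PGN+RVT, a log2 difference of -0.56 ± 0.068 (SE, adjusted p = 0.00288). The ODC1 groups overlapped in neither arm, and the difference between the arms was -0.94 ± 0.082 (SE, adjusted p = 3.12e-05). HSPD1, the mitochondrial HSP60 chaperone, rose from 429 ± 7.06 to 559 ± 12.3 TPM in the LA arm (0.38 ± 0.025 SE, adjusted p = 0.000389) and stood at 618 ± 40.3 and 567.5 ± 20.8 TPM in the PGN arm (adjusted p = 0.177; SD, n = 3 each).

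Some metabolic genes fell with RVT in both arms, against the direction of MYC in the LA arm. SLC7A5, the LAT1 carrier of large neutral amino acids, measured 351.4, 356.55 and 359.49 TPM with LA and 295.69, 300.11 and 295.59 TPM with LA+RVT, a log2 difference of -0.26 ± 0.022 (SE, adjusted p = 0.000808). It measured 906.27, 953.0 and 957.36 TPM with PGN and 519.11, 513.0 and 507.36 TPM with PGN+RVT (-0.87 ± 0.034 SE, adjusted p = 2.44e-05), the largest fall with RVT among the metabolic genes tested. TFRC, the transferrin receptor, fell from 115 ± 0.595 to 93.25 ± 1.236 TPM in the LA arm (-0.30 ± 0.028 SE, adjusted p = 0.00114) and from 174 ± 11.2 to 147 ± 7.67 TPM in the PGN arm (-0.23 ± 0.061 SE, adjusted p = 0.0434; SD, n = 3 each). The second call was lost in 8 of 13 alternatives, among them the fits without any 1 of the 6 libraries (-0.27 to -0.18). LDHA, the lactate dehydrogenase of glycolysis, fell in the PGN arm from 1100.0 ± 89.2 to 787 ± 20.6 TPM (SD, n = 3 each; -0.48 ± 0.058 SE, adjusted p = 0.00282) and measured 568 and 572 TPM in the LA arm (adjusted p = 0.853). The difference between the arms was past the threshold for 18 of 33 genes, 1 positive (SHMT1) and 17 negative, against 14.8% of all genes in either direction. Of the 17 genes with CACGTG in a window, 10 rose and 1 fell in the LA arm and 0 rose and 5 fell in the PGN arm in limma. Of the 12 without it, 6 rose and 1 fell, and then 2 rose and 4 fell.

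Of 14 MYC-induced cell cycle genes tested in the LA arm 1 rose and 3 fell, with a median of 0.02, and of 13 in the PGN arm 2 rose and 4 fell, with a median of -0.18 against 0.064 over all genes. Calls in either direction were made for 15.7% and 15.6% of all genes in these arms. The PGN count of 4 that fell was 2 under the replicate block and without PGN replicate 1 or PGN+RVT replicate 1 or 2. The PGN count of 2 that rose was 1 with library medians equalised and without PGN replicate 2 or PGN+RVT replicate 1 or 3, 3 without PGN replicate 1 and 4 in the fit of all 12 libraries. CCND1, cyclin D1 of G1 phase, rose in both arms, from 193 ± 4.69 to 301 ± 9.86 TPM with LA (0.64 ± 0.033 SE, adjusted p = 0.000199) and from 225 ± 2.88 to 259.8 ± 8.87 TPM with PGN (0.21 ± 0.039 SE, adjusted p = 0.0147; SD, n = 3 each). The PGN call was lost in 4 of 13 alternatives, among them the fits without PGN replicate 2 or PGN+RVT replicate 1 or 3 (0.19 to 0.20). E2F1, a transcription factor of S phase entry, fell in both, by 0.29 and 0.40 on the log2 scale (adjusted p = 0.0055 and 0.00359). MCM5, a subunit of the replicative helicase, fell from 119 ± 3.30 to 89.0 ± 5.64 TPM with LA (adjusted p = 0.00313) and from 118 ± 5.18 to 69.8 ± 1.94 TPM with PGN (adjusted p = 0.000272; SD, n = 3 each). ID2, an inhibitor of differentiation factors, rose in the PGN arm from 9.78 ± 1.64 to 24.1 ± 2.03 TPM (SD, n = 3 each; 1.23 ± 0.12 SE, adjusted p = 0.00131) and stood at 23.3 and 24.9 TPM in the LA arm (adjusted p = 0.70).

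Of 14 genes that MYC is known to repress, 10 were tested, of which 3 rose and 2 fell in the LA arm and 2 rose and 3 fell in the PGN arm, against 15.7% and 15.6% of all genes called in either direction. The LA count of 2 that fell was 0 with no filter, under the replicate block and without LA replicate 2 or 3 or LA+RVT replicate 2 or 3, and 1 without LA replicate 1 or LA+RVT replicate 1. The PGN count of 2 that rose was 1 without PGN replicate 1 or 2 or PGN+RVT replicate 2 or 3. THBS1, the antiangiogenic thrombospondin 1, measured 158.93, 147.75 and 158.69 TPM with LA and 257.97, 284.68 and 250.3 TPM with LA+RVT, a rise of 0.76 ± 0.055 (SE, adjusted p = 0.000542). It measured 731.18, 764.92 and 731.23 TPM with PGN and 362.43, 333.58 and 342.86 TPM with PGN+RVT, a log2 difference of -1.10 ± 0.042 (SE, adjusted p = 2.44e-05). Its 4 groups did not overlap and the difference between the arms was -1.86 ± 0.072 (SE, adjusted p = 7.09e-08). The MYC difference had the same sign as that of THBS1 in each arm, but in the PGN arm it was only -0.087 ± 0.044 (SE). A link of THBS1 to MYC was not tested. GADD45A, a growth arrest and DNA damage gene, rose in the LA arm from 75.7 ± 3.76 to 103.5 ± 5.19 TPM (SD, n = 3 each; 0.45 ± 0.052 SE, adjusted p = 0.00271). NDRG1, a stress-induced gene whose name records its repression by N-MYC, fell in both arms, by 0.29 and 0.48 on the log2 scale (adjusted p = 0.0399 and 0.0118). Its LA call was lost in 7 of 13 alternatives, among them the fits without any 1 library other than LA replicate 1 (-0.31 to -0.22). The paralog NDRG2 fell by 0.33 in the LA arm (adjusted p = 0.03), lost in 8 of 13 alternatives, among them the fits without any 1 library other than LA+RVT replicate 1 (-0.34 to -0.28). CCND3, cyclin D3, rose by 0.30 in the PGN arm (adjusted p = 0.0126), a call lost in 2 of 13 alternatives, including the fit without PGN+RVT replicate 1, where the count of 2 that rose was 0.

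**Figure D4:**
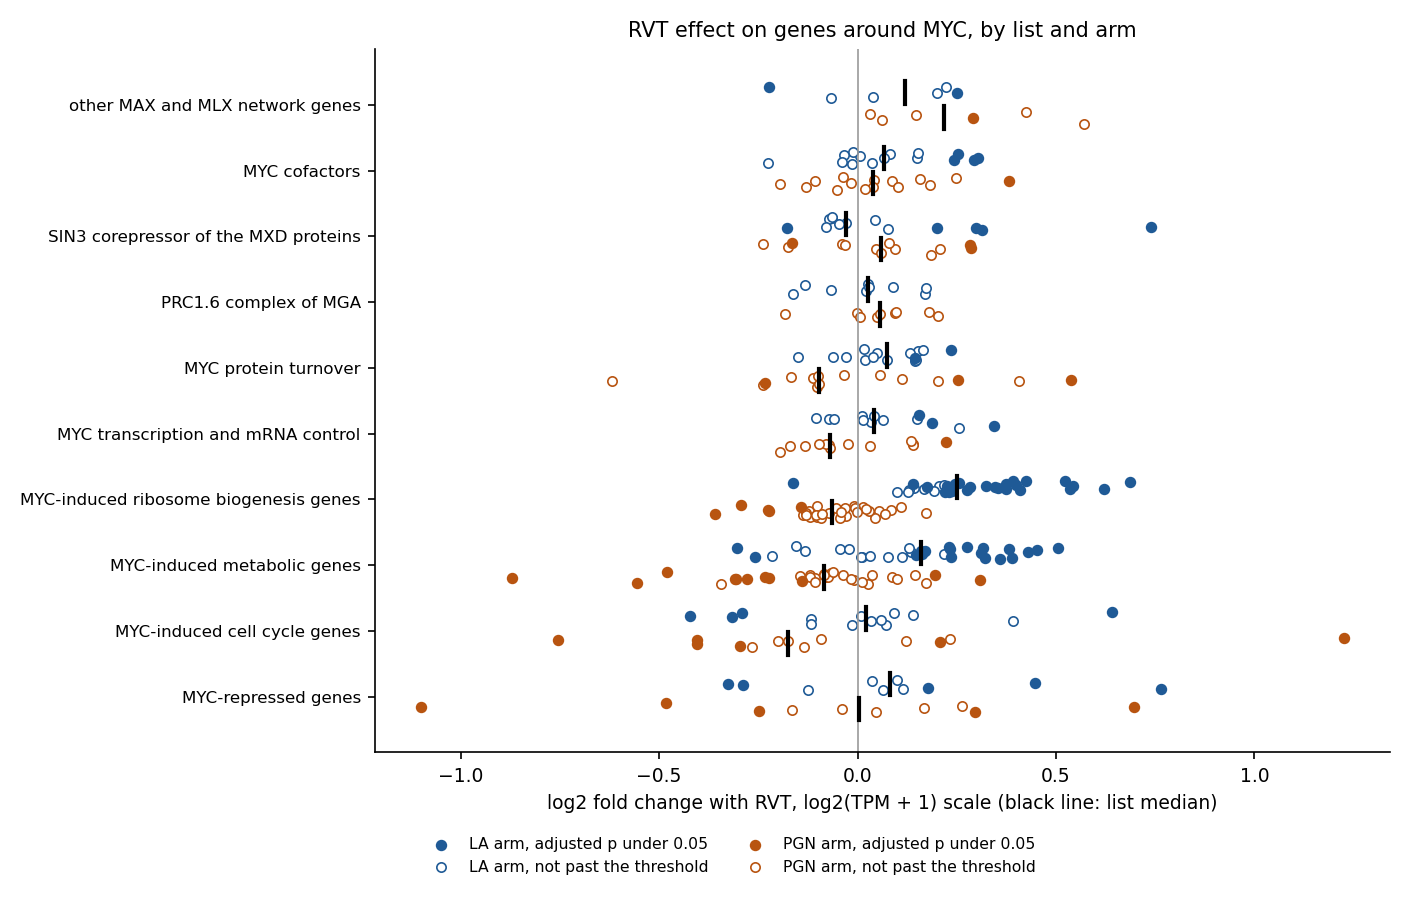
RVT log2 fold change (horizontal axis, log2(TPM + 1) scale) of each tested gene of the 10 lists of network, cofactor and target genes, in the LA arm (blue, upper row) and the PGN arm (orange, lower row); filled points have an adjusted p under 0.05 and black lines are list medians. The median of the ribosome biogenesis genes lies at 0.25 in the LA arm and at -0.063 in the PGN arm.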

How the data were processed

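The authors deposited 2 tables of TPM with 1 column per library, one for the LA and one for the PGN libraries, per the file headers. RSEM 1.3.1, HISAT2 2.1.0 and DESeq2 1.24.0 and the build GRCh38.p13 are named in the submitters' processing notes, which give no roles; annotation and strand are not given in the sources used here. Shared replicate numbers were not used in the fits. TPM keeps no depth, so no counting interval can be given. Nothing says that replicates came from separate cultures, so the p-values reflect variation among these libraries, which may be technical.

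The members and gene lists were chosen with earlier results of these data known. The log2(TPM + 1) of genes with a mean of 1 TPM or more was used, and each arm was fitted on its 6 libraries in R 4.3.3 using limma 3.58.1 (two-sided, trended prior, Benjamini-Hochberg over all tested genes, threshold 0.05), after the script was checked on simulated data. The difference of the arms was fitted on 12 libraries over genes in both tables. LA against PGN was not tested, because 1432 shared identifiers carry different names in the tables. Of 205 symbols in 15 lists, 204 were found in both tables. Named genes are, for each of the 10 network, cofactor and target lists and each arm, up to 3 with the smallest p among called genes that reach 5 TPM in the higher group, plus the 6 most and 3 least like MYC, and MYCN, MYCL, MLX and PVT1; markers, and members listed by name beside a count, are outside this rule and were named after their values were seen. Some genes that the rule or the lists take are not reported here by name. Positions of genes and exons came from GENCODE 29 and promoter windows from RefSeq (GRCh38.p14). Alternatives were other pseudocounts (0.1 and 5), no filter, a mean of at least 5 TPM, equalised library medians, a replicate block, 1 fit of all libraries, and each library left out.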

Additional observations from a re-analysis of the deposited data

Results flagged for a closer look

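Of the genes named from the network, cofactor and target lists, 24 had an RVT difference that itself differed between the arms (PGN difference minus LA difference, limma, adjusted p under 0.05). Most of these genes were named for a small p in an arm, so their number is not compared with the share over all genes. On the log2 scale it was negative for THBS1 (-1.86), ODC1 (-0.94), SAP30 (-0.92), SLC7A5 (-0.61), NOP56 (-0.53), NOLC1 (-0.51), PVT1 (-0.51), HSPD1 (-0.50), NOP16 (-0.49), LDHA (-0.49), NCL (-0.48), NPM1 (-0.44), TCOF1 (-0.43), CCND1 (-0.43), HDAC2 (-0.34), MCM5 (-0.33), WDR5 (-0.28), RUVBL1 (-0.27) and HNRNPK (-0.23). It was positive for ID2 (1.13), TXNIP (0.51), AURKA (0.39), SAP18 (0.37) and HDAC1 (0.21). For MYC (-0.80) and MAX (-1.01), the libraries with RVT were all above those without it in the LA arm and all below them in the PGN arm. The same held for THBS1, ODC1, NOP56, NOLC1, PVT1, HSPD1, NCL, NPM1 and HNRNPK. For MYC the nearest libraries of the PGN arm held 133.40 and 134.10 TPM. As MYC and MAX were chosen by their values, their difference between the arms was not tested.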

How the results depend on the processing

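The LA arm had 2426 genes past the threshold (1645 higher, 781 lower), 1610 with no filter and 1502 under the replicate block, and the PGN arm 2277 (1557 higher, 720 lower) and 1384 with no filter. In the fit of all 12 libraries the PGN arm had 3270 (2285 higher, 985 lower) and the LA arm 2416. Leaving out 1 library gave 1428 to 1690 genes in the LA arm (1459, 1428 and 1463 without LA replicates 1, 2 and 3, and 1546 without LA+RVT replicate 2), 1095 to 1861 in the PGN arm (1236 without PGN replicate 2, and 1095, 1174 and 1201 without PGN+RVT replicates 1, 2 and 3) and 1714 to 2250 for the difference between the arms (2240). With library medians equalised the split became 1041 higher and 1080 lower with LA and 850 and 1020 with PGN. Without MGA among the antagonists the MYC share was 36.05%, 49.32%, 68.46% and 67.32% in LA, LA+RVT, PGN and PGN+RVT. The sign of the difference was kept over the alternatives for all members except MXD4 in the LA arm (-0.18 to 0.01), MXI1 in the PGN arm (-0.01 to 0.15) and MGA in the difference between the arms (-0.04 to 0.20). Same-numbered libraries did not deviate together (correlations of -0.0702 to 0.0407), so the replicate numbers were not read as pairs; the block gave 1574 genes in the PGN arm and 1730 for the difference. Depth is not known from TPM and limits most the genes near 1 TPM, such as MYCL.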
